A study of Homo sapiens with 15 samples.

Results

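The untreated cells of the glioma lines U251 and U87 were compared by RNA-seq, with 3 control libraries of each line out of the 15 libraries of the study. The members are the count columns of these 6 libraries, chosen by their names. Both lines are established cell lines grown from human glioblastomas, labelled here as glioma cell lines with genotype WT. The other 9 libraries come from the same lines with a short hairpin RNA (shRNA) against LAMP2A, and of these only the 3 U87 and 3 U251 libraries with hairpin 1812 are used below, as a second set of libraries for the line difference. The protocol speaks of stably transfected cells for all samples, and for the WT cells the labels name neither a control hairpin nor an empty vector. All values are whole-gene read counts divided by each library's TMM-adjusted total and given as CPM, the usual per-library scale of counts. Differences are log2 of U251 over U87, so a positive value means higher in U251.

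Glioblastoma cells in culture differ in how far they keep the regulators of neural stem cells, such as the SOX factors, or show genes of mesenchymal cells, such as those of matrix collagens and of the factors that drive epithelial cells towards a mesenchymal state. A glioma line also carries its own loss of tumour suppressors, commonly of the CDKN2A region on chromosome 9. Interferon-stimulated genes are switched on by transcription factors, STAT2 and IRF9 among them, after interferon binds its receptor, and some tumour lines show them without added interferon.

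Total counts were 16848617, 14080885 and 15744734 in U87 control replicates 1, 2 and 3 and 16889558, 18567878 and 16160504 in U251 control. In both lines replicates 2 and 3 lay close together and replicate 1 apart. Between U87 replicates 2 and 3, 61 genes differed over 2-fold, against 4519 and 4563 between replicate 1 and each of them. In U251 the same numbers were 63, 734 and 1099. Replicates 2 and 3 of both lines held 3.26% to 3.62% of counts on mitochondrial genes and 250.7 to 391 CPM of the nuclear RNA MALAT1, and replicate 1 held 1.22% and 1.80% and 32.7 and 67.4 CPM. The calls over all genes are therefore also given for replicate 1 against replicate 1 and for replicates 2 and 3 against replicates 2 and 3. For lists and single genes these checks are given in part. Nothing in the labels shows that replicates came from separate cultures. The p-values therefore reflect the spread within groups of all 15 libraries, those with a hairpin included, which may be technical.

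The lines differed widely in their transcriptomes. Of 16841 genes, 2642 (15.7%) were called higher and 2685 (15.9%) lower in U251, at an adjusted p under 0.05 in edgeR's quasi-likelihood test and an absolute log2 difference of at least 1, which is a 2-fold difference. Together they are 31.6% of the genes tested. The difference was between 1 and 2 log2 units for 1098 higher and 1295 lower genes and at least 8 for 197 and 134. In 8537 genes (50.7%) the 3 U251 libraries did not overlap the 3 U87 libraries. A gene list below is read against these shares and against the median log2 difference of all genes tested, -0.04. Several list medians changed sign between replicate 1 and replicates 2 and 3. Among them were neuronal markers (2.04 and -0.595), epithelial markers (-0.54 and 1.59) and the Hedgehog pathway (-0.62 and 0.29). Others were NF-kB chemokines and cytokines (-0.34 and 0.62), collagen chains (0.91 and -0.07) and mitochondrially encoded transcripts (0.54 and -0.30).

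Most of the calls were made again in separate control libraries. Replicate 1 against replicate 1 gave 3140 higher (18.6%) and 2545 lower genes (15.1%), and replicates 2 and 3 gave 2740 (16.3%) and 2788 (16.6%). Of these, 1948 genes were higher in both, which is 62.0% of the first and 71.1% of the second, and 1727 lower in both, 67.9% and 61.9%. Calls of opposite sign numbered 28 and 23. The line difference itself differed between replicate 1 and replicates 2 and 3 in 1860 genes (11%) at an adjusted p under 0.05 and a difference of at least 1.

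**Figure D1:**
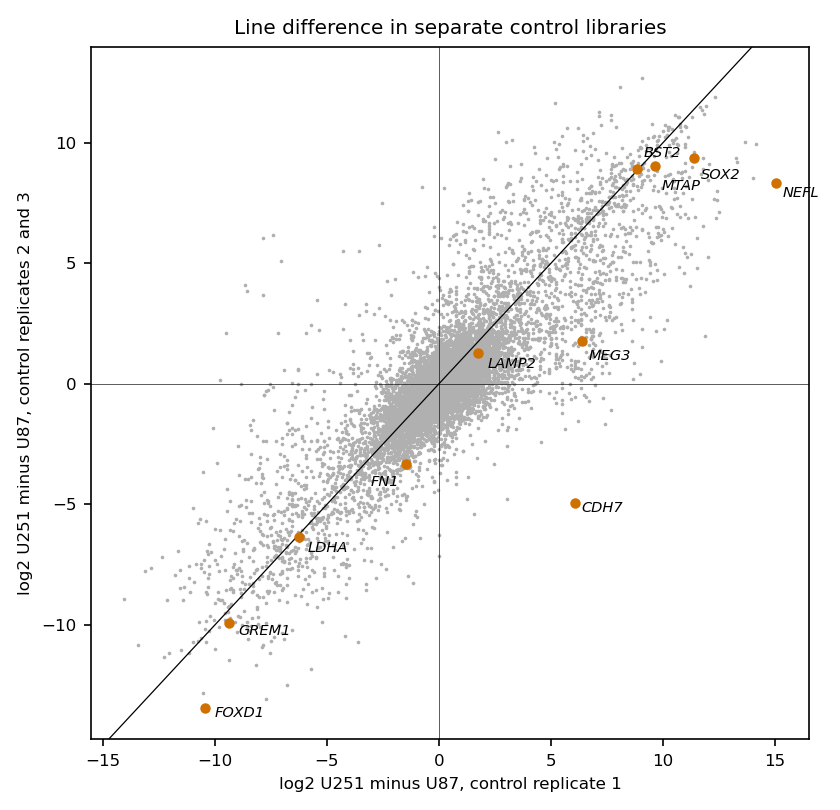
Line difference of every gene tested, as log2 U251 minus U87, in control replicate 1 (horizontal) and in control replicates 2 and 3 (vertical), with 11 named genes in orange and the line of equality. SOX2, BST2, MTAP, LDHA and GREM1 lie far from 0 on the same side in both, while CDH7, at 0 counts in U87 replicate 1, lies above 0 in replicate 1 and at -4.92 in replicates 2 and 3.

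SOX2, BST2, LDHA and FOXD1 had been proposed as markers with earlier results of these data known and are given as a description. SOX2 (ENSG00000181449, chromosome 3, 181711925 to 181714436 in GRCh38), a transcription factor of neural stem cells, held 0.0673, 0.208 and 0.248 CPM in U87 and 203, 165 and 152 CPM in U251 (log2 difference 9.88, SE 0.38). BST2 (ENSG00000130303, chromosome 19, 17402939 to 17405630), an interferon-induced membrane protein that tethers virus particles, held 0.741, 1.11 and 0.619 CPM in U87 and 342, 412 and 423 CPM in U251 (log2 difference 8.89, SE 0.32). SOX2 and BST2 were near the detection limit in every U87 library and at 152 CPM or more in every U251 library.

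LDHA (ENSG00000134333, chromosome 11, 18394560 to 18408425), the lactate dehydrogenase subunit that favours the making of lactate, ran the other way with 3604, 2855 and 2795 CPM in U87 and 47.2, 35.2 and 33.4 CPM in U251 (log2 difference -6.32, SE 0.20). FOXD1 (ENSG00000251493, chromosome 5, 73444827 to 73448777), a forkhead transcription factor of the developing kidney stroma and forebrain, held 91.2, 95.8 and 80.2 CPM in U87 and 0.0585, 0 and 0 CPM in U251. That is 4035 counts in U87 and 1 in U251, a ratio of 4862 (95% interval 872 to 192080) of U87 over U251. These intervals, here and below, account for counting error alone, because reads are not independent molecules. None of the 4 genes overlapped between lines, as was so for 50.7% of all genes tested, and all kept their call in each of the 15 alternative settings. Since these 4 were proposed with results of these data known, neither is independent support.

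The 12 largest differences among genes of at least 5 FPKM in the higher line included several that were silent in U87. PNMA8A (ENSG00000182013, chromosome 19, 46466491 to 46471563), of a family named for paraneoplastic antigens, held 41.6, 30.7 and 30.1 CPM in U251 and 0 counts in U87. Against a floor of 3 counts over the 3 U87 libraries it was at least 514-fold higher. The fatty acid elongase ELOVL2 held 27.5, 20.1 and 21.8 CPM in U251 and 0 in U87 (at least 348-fold), and the cell cycle gene RPRM held 16.4, 7.61 and 8.13 CPM and 0 (at least 159.6-fold). The noncoding RNA LINC02506 was at 0 in U87 as well (at least 147-fold).

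Others of the 12 were present at a few counts in U87. IL18, a cytokine of the interleukin-1 family, held 0.135, 0 and 0 CPM in U87 and 77.1, 53 and 51.3 CPM in U251, a ratio of 1363 (95% interval 377 to 11257). GPC4, a heparan sulfate proteoglycan of the cell surface, held 0, 0.0692 and 0.124 CPM in U87 and 105, 113 and 109 CPM in U251, a ratio of 1657 (95% interval 567 to 8038). GSTM3, a glutathione transferase, held 0, 0.138 and 0 CPM in U87 and 78.7, 47.9 and 48.5 CPM in U251, a ratio of 1312 (95% interval 363 to 10839). The 12 were picked among genes whose lines did not overlap, so the separation of the lines in these 3 follows from the choice. The rest of the 12 (HOXB9, IRX1, SOX21, COL4A1 and EPHA3) are described with their families.

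Genes of U87 that were silent in U251 were led by TNFSF9, the ligand of the T cell receptor 4-1BB, with 39.1, 21.0 and 20.2 CPM in U87 and 0 counts in U251 (at least 486-fold lower in U251). MSC, a basic helix-loop-helix repressor also called musculin, held 33.3, 17.8 and 18.6 CPM and 0 (at least 423-fold lower). CHCHD10, a mitochondrial intermembrane protein, held 16.1, 12.9 and 13.7 CPM and 0 (at least 259-fold lower). In these 3 genes no U251 control library had a single count. SERPINB2, an inhibitor of plasminogen activators, held 176, 73.0 and 69.1 CPM in U87 and 0.117, 0.10 and 0 CPM in U251 (log2 difference -10.36, SE 0.65, adjusted p 7.3e-09). PTPRN, a protein of dense-core secretory vesicles, held 87.7, 210 and 210 CPM in U87 and 0, 0.10 and 0.113 CPM in U251 (log2 difference -11.03, SE 0.59, adjusted p 1.5e-09).

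The neuronal adhesion gene NRXN2 held 99.0, 60.7 and 54.0 CPM in U87 and 0.0585, 0 and 0 CPM in U251, a ratio of 3879.8 (95% interval 696 to 153290) of U87 over U251. The membrane protein genes TMEM119, TMEM233 and VSTM4 each had 2 or 3 counts in U251 over the 3 libraries. Their ratios of U87 over U251 were 1803 (95% interval 617 to 8746), 1894 (95% interval 524 to 15647) and 1709 (95% interval 584 to 8288). Among genes silent in 1 line, 115 had 0 counts in U87 and over 1 FPKM in U251, and 79 the reverse. The 6 highest of each also held PMS2P5 (at least 62.0-fold higher in U251), GGT8P (at least 119-fold lower) and AC113346.1 (at least 103-fold lower). The first is a copy of a PMS2 sequence and the second of a GGT sequence, so reads could be shared with near-identical genes.

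**Figure D2:**
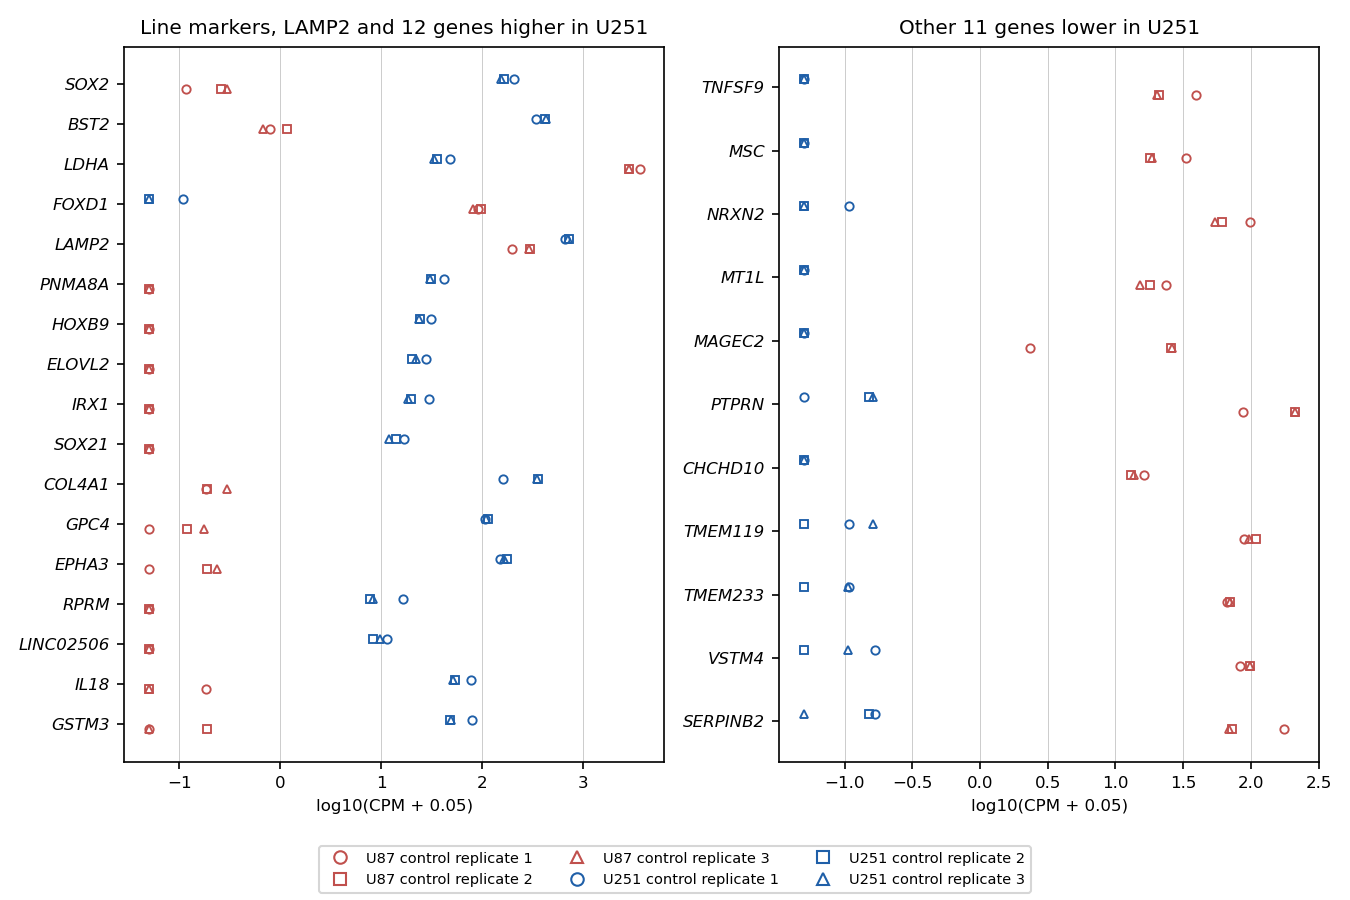
Level of each gene in each of the 6 control libraries, as log10 of CPM plus 0.05, with U87 in red and U251 in blue and a symbol for each replicate; a gene at 0 lies at -1.30. In every gene shown the U251 symbols stand apart from the U87 symbols, by 203 against 0.0673 CPM for SOX2 in replicate 1, and by 659 against 195 CPM for LAMP2 in replicate 1. For the genes picked by the size of their difference, lack of overlap was a condition of the choice.

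Genes of neural stem cells, most of them transcription factors, were higher in U251 as a group. Of 17 SOX, POU and related genes tested out of 27, 14 were higher and 1 lower, with a median log2 difference of 1.94 (2.29 in replicate 1 and 1.82 in replicates 2 and 3). In the libraries with hairpin 1812, 9 of the 17 were called higher and 0 lower (median 1.77). SOX9, which acts in glial fate, held 6.87, 4.22 and 6.00 CPM in U87 and 63.4, 97.2 and 92.8 CPM in U251 (log2 difference 3.89, SE 0.21, adjusted p 1.9e-09). SOX3, a close relative of SOX2, held 0, 0.0692 and 0 CPM in U87 and 28.4, 20.7 and 18.2 CPM in U251, a ratio of 1013 (95% interval 182 to 40058). SOX21, another SOX factor of neural progenitors, had 0 counts in U87 and 16.8, 13.9 and 11.9 CPM in U251 (at least 215-fold higher). These 3 SOX genes were thus low or silent in every U87 library.

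POU3F2, a neural partner of SOX2 also called BRN2, held 0.337, 0.0692 and 0.619 CPM in U87 and 52.6, 58.9 and 55.1 CPM in U251 (log2 difference 7.28, SE 0.34, adjusted p 3.8e-10). NES, the intermediate filament nestin of neural progenitors, was present in both lines with 62.1, 24.8 and 26.2 CPM in U87 and 218, 277 and 276 CPM in U251 (log2 difference 2.77, SE 0.29, adjusted p 2.0e-06). U251 was higher in every library for both genes. The called member that went the other way was OLIG2, a factor of the oligodendrocyte lineage, at 1.48, 1.38 and 1.61 CPM in U87 and 0.117, 0 and 0.282 CPM in U251 (log2 difference -3.45, SE 0.77, adjusted p 0.00172). SOX1, SOX8 and OLIG1 had 0 counts in all 6 libraries. Of other members too low to test, PROM1 had 26 counts in U87 and 2 in U251, and MSI1 had 1 and 33.

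Astrocyte genes were split between the lines: 5 of 14 tested were higher and 6 lower, with a median of -0.58. GFAP, the astrocyte intermediate filament, held 1.68, 1.87 and 2.10 CPM in U87 and 144, 107 and 96.8 CPM in U251 (log2 difference 5.94, SE 0.32, adjusted p 1.9e-09). FABP7, a fatty acid binding protein of radial glia, held 0, 0.899 and 0.248 CPM in U87 and 23.8, 17.1 and 14.9 CPM in U251 (log2 difference 5.6, SE 0.53, adjusted p 5.9e-07), and the glutamate transporter SLC1A3 held 42.0, 44.6 and 42.2 CPM in U87 and 92.4, 102 and 100.4 CPM in U251 (log2 difference 1.20, SE 0.13, adjusted p 3.7e-06). These were higher in U251. The glutamine synthetase gene GLUL held 278, 134 and 143 CPM in U87 and 89.4, 66.7 and 63.2 CPM in U251 (log2 difference -1.34, SE 0.23, adjusted p 2.3e-04) and ALDOC, the brain form of aldolase, held 26.9, 51.3 and 43.4 CPM in U87 and 0.819, 0.601 and 1.02 CPM in U251 (log2 difference -5.64, SE 0.39, adjusted p 2.2e-08), both lower. AQP4, a water channel of astrocytes, had 0 counts in both lines, and VIM, the filament vimentin, held 4986, 4512 and 4409 CPM in U87 and 3731, 2956 and 2808 CPM in U251 (log2 difference -0.55, below the 2-fold limit).

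Markers of other cell types gave mixed counts. In the neuronal list 3 of 8 tested members were higher and 3 lower (1 lower without U87 replicate 1): NEFL, the neurofilament light chain, held 0, 0.415 and 0.619 CPM in U87 and 275, 181 and 166 CPM in U251 (log2 difference 9.17, SE 0.51, adjusted p 2.2e-09), and SNAP25, a protein of synaptic vesicle fusion, held 7.95, 27.2 and 26.5 CPM in U87 and 4.33, 4.10 and 3.22 CPM in U251 (log2 difference -2.40, SE 0.38, adjusted p 9.3e-05). Of 7 oligodendrocyte lineage genes tested, 2 were higher and 2 lower. PDGFRA, the receptor of platelet-derived growth factor that marks progenitors, held 0.471, 3.18 and 3.40 CPM in U87 and 36.0, 37.3 and 35.0 CPM in U251 (log2 difference 3.93, SE 0.42, adjusted p 2.3e-06), while CSPG4, the NG2 proteoglycan of progenitors and pericytes, held 57.9, 127 and 122 CPM in U87 and 1.34, 1.65 and 3.05 CPM in U251 (log2 difference -5.66, SE 0.34, adjusted p 4.3e-09). The progenitor genes PDGFRA and CSPG4 thus stood on opposite sides.

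Leukocyte markers were mostly undetected, with TYROBP, CD3E and MS4A1 at 0 counts in all 6 libraries. Only 3 of 11 passed the filter, 2 of them lower in U251 (sum of the list 19.1 to 26.2 CPM in U87 and 2.94 to 3.75 CPM in U251). CSF1R, the receptor of macrophage growth factor, held 24.1, 17.6 and 17.2 CPM in U87 and 2.40, 2.50 and 1.19 CPM in U251 (log2 difference -3.27, SE 0.31, adjusted p 5.3e-07). Endothelial markers summed to 8.48 to 30.2 CPM in U87 and 15.1 to 21.3 CPM in U251, with 1 of 6 higher and 2 lower, and epithelial markers to 7.33 to 27.2 and 47.6 to 53.6 CPM, with 1 higher (KRT18, a keratin, 0.673, 0.277 and 0.371 CPM in U87 and 34.6, 31.6 and 33.5 CPM in U251) and 1 lower. Without U87 replicate 1, 4 epithelial and 2 endothelial markers were higher.

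Homeobox genes that carry positional identity differed in both directions. Of 33 HOX genes tested, 17 were higher and 6 lower (median 1.08). HOXB9 (ENSG00000170689, chromosome 17, 48621156 to 48626358) had 0 counts in U87 and 31.0, 24.2 and 23.6 CPM in U251, at least 396-fold higher, and HOXB2, nearer the other end of the same cluster, held 39.5, 44.7 and 42.0 CPM in U87 and 0.234, 0.200 and 0.395 CPM in U251 (log2 difference -7.22, SE 0.39, adjusted p 1.5e-09). The HOXB cluster was thus split, with HOXB3, HOXB7, HOXB8, HOXB9 and HOXB13 higher in U251 and HOXB2 and HOXB4 lower. HOXB3 held 19.7, 32.8 and 30.5 CPM in U87 and 120.5, 129 and 124 CPM in U251 (log2 difference 2.171, SE 0.18, adjusted p 1.6e-07) and HOXB4 held 18.9, 7.89 and 7.80 CPM in U87 and 1.52, 1.45 and 1.69 CPM in U251 (log2 difference -2.88, SE 0.39, adjusted p 2.5e-05). HOXB13, at the far end, had 1 count in U87 and 10.5, 7.56 and 5.76 CPM in U251. HOXC13 held 0.0673, 0.0692 and 0.0619 CPM in U87 and 16.4, 11.2 and 10.2 CPM in U251, a ratio of 189.5 (95% interval 64.6 to 921). Neighbouring HOX genes overlap and carry antisense transcripts, and whether the counting used strand is not given in the sources used here.

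Of 31 genes of the IRX, LHX, OTX, EMX, TBX and related families, 9 were higher and 10 lower (median -0.04). IRX1, an Iroquois homeobox factor, had 0 counts in U87 and 29.6, 19.5 and 18.4 CPM in U251 (at least 338-fold higher). EN1, which marks the midbrain and hindbrain border, held 0, 0.0692 and 0 CPM in U87 and 5.55, 5.21 and 4.75 CPM in U251, a ratio of 235 (95% interval 41.8 to 9309). Lower in U251 were the LIM homeobox factor LHX6, at 40.2, 32.2 and 31.2 CPM in U87 and 0.234, 0.400 and 0.169 CPM in U251 (log2 difference -6.94, SE 0.27, adjusted p 8.1e-11), and the T-box factor TBX15, at 44.8, 109 and 98.3 CPM in U87 and 0.994, 0.551 and 0.847 CPM in U251 (log2 difference -6.72, SE 0.45, adjusted p 1.3e-08). PAX3, a factor of neural crest and muscle, held 5.93, 5.53 and 6.13 CPM in U87 and 0 counts in U251 (at least 107-fold lower). Each line thus had regulators that were at or near 0 counts in the other.

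In the forkhead family 6 of 19 tested genes were higher and 5 lower. FOXL1, a factor of mesenchyme around the gut, held 136, 93.7 and 96.4 CPM in U87 and 1.46, 1.5 and 1.64 CPM in U251 (log2 difference -6.14, SE 0.24, adjusted p 8.3e-11) and FOXC2, of mesoderm and vessels, held 15.5, 18.1 and 17.8 CPM in U87 and 0, 0.050 and 0.0565 CPM in U251, a ratio of 469.9 (95% interval 129.7 to 3887) of U87 over U251. FOXA1, a pioneer factor of endoderm, had 0 counts in U87 and 6.67, 6.26 and 6.95 CPM in U251 (at least 100.2-fold higher). FOXC1, the relative of FOXC2, held 6.19, 7.82 and 8.29 CPM in U87 and 20.1, 20.7 and 17.9 CPM in U251 (log2 difference 1.39, SE 0.21, adjusted p 8.0e-05) and so differed in the direction opposite to FOXC2.

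Genes of axon guidance were higher in U251 in 16 of 29 tested members and lower in 3 (median 1.52). The secreted repellent SLIT2 held 1.68, 1.66 and 2.04 CPM in U87 and 102, 147 and 142 CPM in U251 (log2 difference 6.17, SE 0.45, adjusted p 3.4e-08), the netrin receptor UNC5C held 0, 0.484 and 0.371 CPM in U87 and 28.7, 40.0 and 42.4 CPM in U251 (log2 difference 6.98, SE 0.46, adjusted p 1.1e-08) and netrin itself, NTN1, held 0.135, 0.553 and 0.681 CPM in U87 and 20.8, 14.9 and 14.7 CPM in U251 (log2 difference 5.17, SE 0.38, adjusted p 4.7e-08). All 3 were low in every U87 library. SEMA3F, a secreted semaphorin, held 0.135, 0.138 and 0 CPM in U87 and 9.71, 8.71 and 7.46 CPM in U251 (log2 difference 6.49, SE 0.51, adjusted p 7.7e-08). Lower in U251 were the transmembrane semaphorin SEMA5A, at 12.5, 39.4 and 40.8 CPM in U87 and 3.92, 3.95 and 3.50 CPM in U251 (log2 difference -3.03, SE 0.33, adjusted p 2.8e-06), and the netrin receptor UNC5B, at 19, 35.1 and 38.6 CPM in U87 and 6.43, 5.25 and 4.52 CPM in U251 (log2 difference -2.51, SE 0.38, adjusted p 6.9e-05). SEMA6D was called lower too (-2.10), but held 0.741, 6.23 and 6.50 CPM in U87 and 0.994, 1.05 and 1.07 CPM in U251, and in replicate 1 alone the difference was 0.42.

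**Figure D3:**
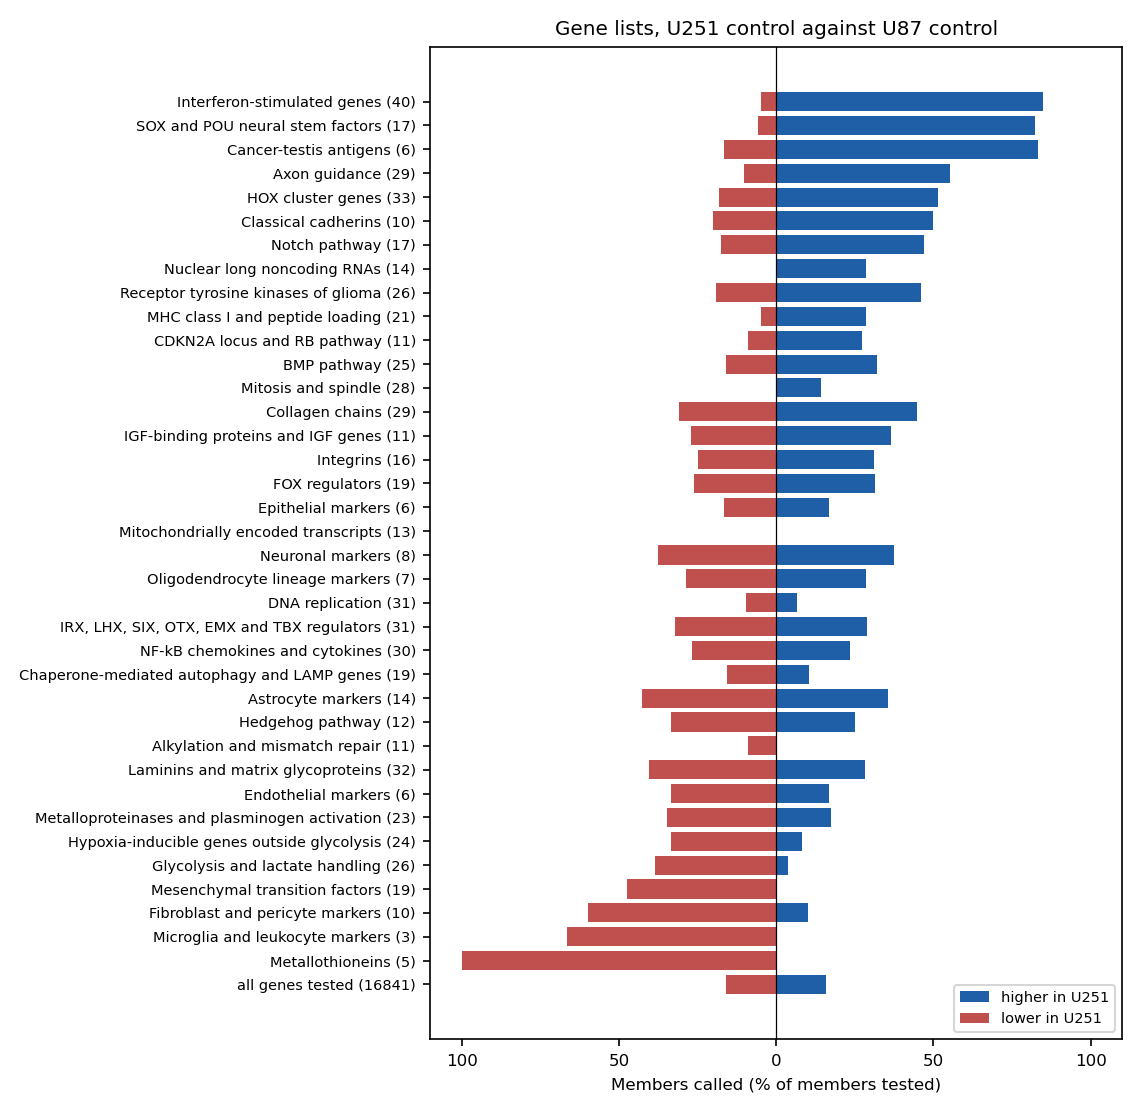
Share of the tested members of each gene list shown, called higher (blue, to the right) or lower (red, to the left) in U251 control against U87 control, in percent, with the number tested in parentheses and all genes at the bottom. Interferon-stimulated genes (34 of 40) and the list of SOX, POU and related genes (14 of 17) reach far to the right of the 15.7% of all genes, and mesenchymal factors (9 of 19) to the left.

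Interferon-stimulated genes were higher in U251 almost throughout. Of 40 tested, 34 were called higher and 2 lower, with a median log2 difference of 2.84 (2.45 in replicate 1 and 3.26 in replicates 2 and 3). Summed over the list, U87 libraries held 1120 to 1174 CPM and U251 libraries 6293 to 9188 CPM. The promoters of 30 of the 40 genes are in the RefSeq tables of GRCh38.p14, as 250 bases before and 50 after the gene start. The core of the element bound by complexes of STAT2 and IRF9, searched as GAAA, any 2 bases and GAAA on both strands with overlaps allowed, was in 20 of the 30 (66.7%) and in 996 of 27305 promoters of all genes (3.65%).

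Stretches of 8 of these promoters are shown, chosen as genes described here that were higher in U251 and hold a match, 5′ to 3′ on the strand of the gene, with matches to that pattern on either strand in capitals (on the reverse strand TTTC, any 2 bases and TTTC).
BST2, chr19:17405725-17405780, minus strand: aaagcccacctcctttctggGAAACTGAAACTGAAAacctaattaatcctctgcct
IFI27, chr14:94110608-94110670, plus strand: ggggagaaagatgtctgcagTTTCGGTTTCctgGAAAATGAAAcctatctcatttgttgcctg
ISG15, chr1:1013364-1013419, plus strand: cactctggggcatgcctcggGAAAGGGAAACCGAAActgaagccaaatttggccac
IFI6, chr1:27672256-27672368, minus strand: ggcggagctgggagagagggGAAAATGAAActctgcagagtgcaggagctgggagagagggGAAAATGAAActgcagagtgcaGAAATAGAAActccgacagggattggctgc
MX1, chr21:41420549-41420598, plus strand: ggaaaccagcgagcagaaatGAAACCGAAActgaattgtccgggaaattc
IFIT1, chr10:89392487-89392549, plus strand: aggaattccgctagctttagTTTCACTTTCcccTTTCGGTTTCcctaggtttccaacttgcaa
IFITM1, chr11:313980-314063, plus strand: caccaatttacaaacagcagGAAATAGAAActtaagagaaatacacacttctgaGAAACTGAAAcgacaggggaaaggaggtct
IFITM3, chr11:320866-320932, minus strand: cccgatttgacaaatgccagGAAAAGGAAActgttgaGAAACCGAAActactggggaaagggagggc
OAS1 and RSAD2, described below and higher in U251 as well, hold no match in this window and are not printed. In BST2 and ISG15 the capitals run on because overlapping matches share GAAA units. A match describes the letters of the reference genome and was not tested for binding. Among promoters with a table entry, 20 of the 28 called genes held a match and 0 of the 2 genes not called, STAT2 and IRF1. With only 2 genes not called, these shares cannot be compared. EPSTI1, which was lower in U251, holds a match too.

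IFI27, a small mitochondrial protein, held 0.337, 2.08 and 0.805 CPM in U87 and 644, 542 and 525 CPM in U251 (log2 difference 9.06, SE 0.43, adjusted p 5.3e-10). IFI6, a related protein, held 30.0, 22.5 and 20.7 CPM in U87 and 1404, 1246 and 1294 CPM in U251 (log2 difference 5.75, SE 0.29, adjusted p 7.8e-10). ISG15, a ubiquitin-like modifier, held 13.2, 9.82 and 7.49 CPM in U87 and 249.6, 259 and 264 CPM in U251 (log2 difference 4.66, SE 0.24, adjusted p 1.0e-09). The lines were far apart in all 3 genes, and U251 replicate 1 lay close to replicates 2 and 3. The antiviral GTPase MX1 held 1.82, 2.77 and 2.41 CPM in U87 and 85.7, 202 and 188 CPM in U251 (log2 difference 6.08, SE 0.39, adjusted p 8.6e-09) and IFIT1, which binds viral RNA ends, held 9.29, 10.2 and 10.6 CPM in U87 and 227, 372 and 337 CPM in U251 (log2 difference 4.96, SE 0.31, adjusted p 6.3e-09). In MX1 and IFIT1 U251 replicate 1 was the lowest of its line, yet stood above every U87 library.

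The membrane proteins that block virus entry showed the same direction. IFITM1 held 1.41, 0.761 and 0.248 CPM in U87 and 120.3, 178 and 183 CPM in U251 (log2 difference 7.64, SE 0.45, adjusted p 4.0e-09) and IFITM3 held 107, 36.9 and 38.7 CPM in U87 and 296, 298 and 287 CPM in U251 (log2 difference 2.27, SE 0.33, adjusted p 4.0e-05). Neighbouring IFITM genes are similar in sequence, so their counts may share reads. The RNA-degrading system's OAS1 held 10.9, 1.52 and 1.55 CPM in U87 and 100.2, 166 and 162 CPM in U251 (log2 difference 4.94, SE 0.59, adjusted p 6.2e-06), and U87 replicate 1 was above replicates 2 and 3. RSAD2, also called viperin, held 0, 0.623 and 0.309 CPM in U87 and 16.0, 65.3 and 58.9 CPM in U251 (log2 difference 7.21, SE 0.66, adjusted p 4.3e-07).

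Among the transcription factors on the list, STAT2 held 84.1, 85.4 and 89.1 CPM in U87 and 59.8, 118 and 113 CPM in U251 and was not called (log2 difference 0.17, SE 0.21, adjusted p 0.518). Its partner IRF9 was called higher in U251. IRF1, a factor induced by interferon gamma, held 61.4, 19 and 18.6 CPM in U87 and 34.7, 40.4 and 36.5 CPM in U251 with the lines overlapping (log2 difference 0.17, SE 0.34, adjusted p 0.699). It was -0.82 in replicate 1 and 1.03 in replicates 2 and 3. IRF7, the factor that amplifies interferon production, was lower in U251 at 2.90, 2.49 and 1.86 CPM in U87 and 0.0585, 0.50 and 0.339 CPM in U251 (log2 difference -2.95, SE 0.57, adjusted p 5.3e-04), as was EPSTI1 at 0.404, 3.60 and 3.96 CPM in U87 and 0, 0.050 and 0.226 CPM in U251 (log2 difference -4.75, SE 0.89, adjusted p 4.5e-04).

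**Figure D4:**
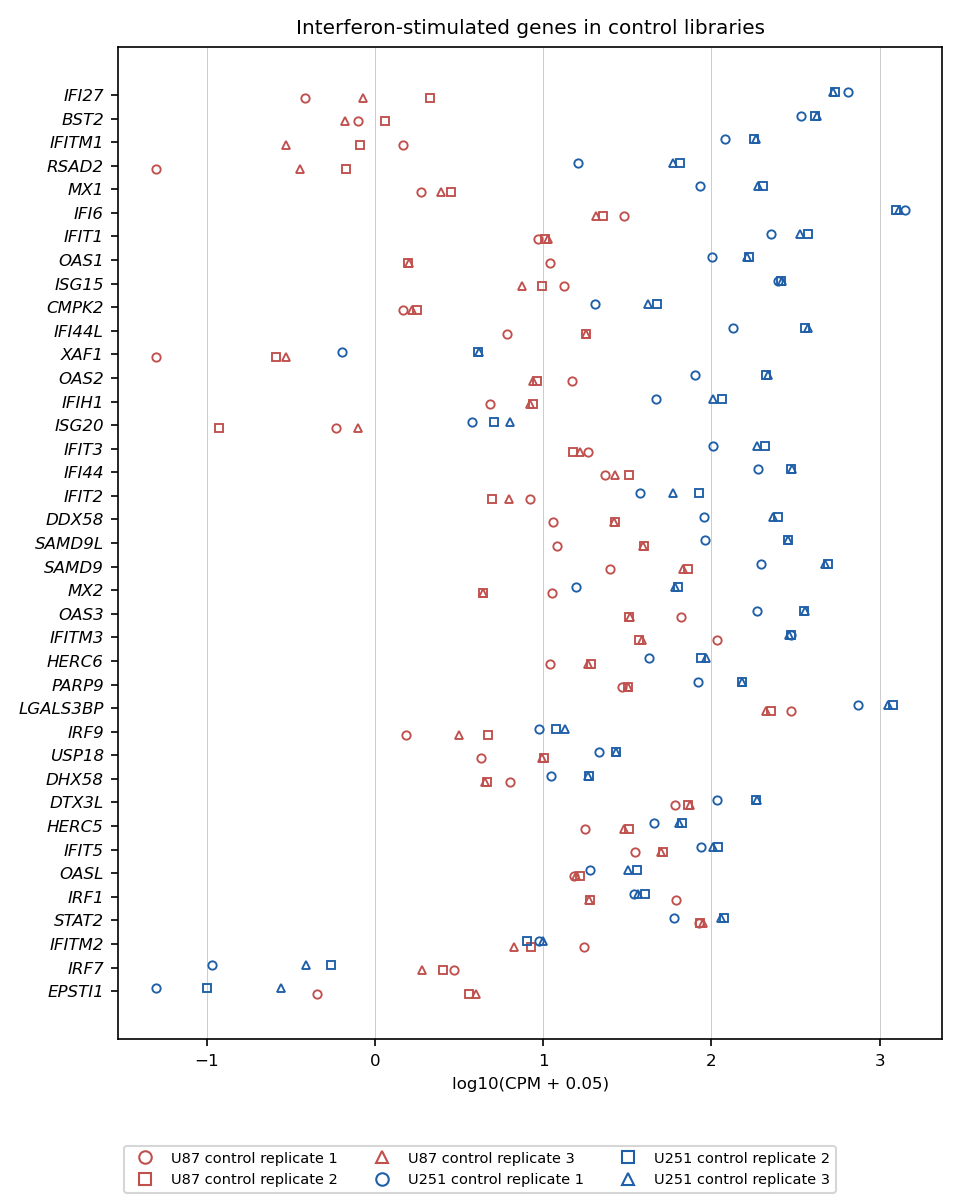
Level of interferon-stimulated genes of the list in the 6 control libraries, as log10 of CPM plus 0.05, ordered by line difference, with U87 in red and U251 in blue. The blue symbols lie to the right from IFI27 at the top (525 to 644 CPM in U251) through most of the list, and to the left for IRF7 and EPSTI1 at the bottom.

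Genes of antigen presentation by MHC class I were called in 7 of 21 tested (33.3%), near the 31.6% of all genes tested. Of the 7, 6 were higher and 1 lower (median 0.57), and 2 were lower without U87 replicate 2 or 3. The peptide transporter subunits TAP1 and TAP2 held 82.9, 38.5 and 40.4 CPM in U87 and 169, 199 and 192 CPM in U251 (log2 difference 1.79, SE 0.26, adjusted p 4.1e-05) and 39.1, 29.2 and 31.2 CPM in U87 and 70.0, 109.5 and 107 CPM in U251 (log2 difference 1.53, SE 0.20, adjusted p 1.8e-05). The heavy chain HLA-B (214, 158 and 150.3 CPM in U87 and 229, 254 and 254 CPM in U251) and the light chain B2M (3033, 1238 and 1243 CPM in U87 and 3363, 2605 and 2530.3 CPM in U251) did not pass (adjusted p 0.127 and 0.0756). Without U87 replicate 1 B2M was at 1.20 and called. Reads of the similar HLA genes may have been split between them. TAPBPL, an editor of peptide loading, was the one lower in U251, at 9.16, 10.9 and 12.4 CPM in U87 and 1.17, 1.35 and 0.847 CPM in U251 (log2 difference -3.26, SE 0.30, adjusted p 4.8e-07).

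Among genes downstream of NF-kB, 7 of 30 tested were higher and 8 lower (median 0.10), and 4 were higher without U87 replicate 2. The interferon-inducible chemokine CXCL10 had 0 counts in U87 and 2.10, 5.10 and 4.12 CPM in U251 (at least 58.4-fold higher). CSF3, the granulocyte colony-stimulating factor, was the largest difference the other way, with 243, 54.1 and 51.5 CPM in U87 and 0.409, 0.200 and 0.339 CPM in U251 (log2 difference -8.51, SE 0.84, adjusted p 9.9e-07). IL1B, interleukin-1 beta, held 47.7, 12.7 and 12.9 CPM in U87 and 1.23, 2.65 and 3.56 CPM in U251 (log2 difference -3.29, SE 0.57, adjusted p 2.1e-04), and the neutrophil chemokine CXCL1 held 2.02, 4.36 and 3.22 CPM in U87 and 0.0585, 0 and 0 CPM in U251, a ratio of 175 (95% interval 30.9 to 6948) of U87 over U251. Both cytokines and CXCL1 were low in every U251 library. NFKBIA, the inhibitor that NF-kB itself induces, held 196, 138 and 137 CPM in U87 and 59.0, 39.3 and 38.6 CPM in U251 (log2 difference -1.78, SE 0.19, adjusted p 1.8e-06). CXCL8, interleukin-8, held 167, 121 and 122 CPM in U87 and 231, 165 and 163 CPM in U251 and did not pass (adjusted p 0.0867).

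LDHA was the extreme of a list of glycolysis genes in which 10 of 26 tested were lower in U251 and 1 higher (median -0.88). Per length LDHA held 526, 485 and 475 FPKM in U87 and 7.92, 6.27 and 6.06 FPKM in U251. The related subunit LDHB, which favours the use of lactate, held 419.8, 256 and 263 CPM in U87 and 214, 129.6 and 129 CPM in U251 and at -0.99 (adjusted p 0.00204) stayed just under the 2-fold limit. LDHB per length was 124, 88.3 and 90.3 FPKM in U87 and 72.5, 46.8 and 47.3 FPKM in U251, so in U87 the FPKM of LDHA was above that of LDHB in every library and in U251 below it. The hexokinases, which start glycolysis, were lower in U251 with 930.5, 830 and 836 CPM in U87 and 399, 366 and 352 CPM in U251 for HK1 (log2 difference -1.22, SE 0.13, adjusted p 2.1e-06) and 176, 523 and 503 CPM in U87 and 46.4, 88.7 and 83.5 CPM in U251 for HK2 (log2 difference -2.46, SE 0.38, adjusted p 7.7e-05). The neuronal enolase ENO2 held 204, 209 and 201 CPM in U87 and 73.6, 85.8 and 82.5 CPM in U251 (log2 difference -1.34, SE 0.16, adjusted p 5.3e-06). The glucose transporter SLC2A1 was the member that was higher, at 88.5, 109 and 104 CPM in U87 and 301, 289 and 274 CPM in U251 (log2 difference 1.52, SE 0.21, adjusted p 3.4e-05).

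Hypoxia-inducible genes outside glycolysis were lower in 8 of 24 tested and higher in 2 (median -0.51). CA12, a carbonic anhydrase of the cell surface, held 155, 229 and 224 CPM in U87 and 1.58, 1.45 and 1.58 CPM in U251 (log2 difference -7.04, SE 0.22, adjusted p 1.3e-11). STC2, a secreted glycoprotein, held 344, 495 and 504.2 CPM in U87 and 47.1, 41.0 and 41.5 CPM in U251 (log2 difference -3.37, SE 0.20, adjusted p 4.8e-09) and the collagen hydroxylase subunit P4HA2 held 404, 379.7 and 362 CPM in U87 and 101, 124 and 119 CPM in U251 (log2 difference -1.74, SE 0.16, adjusted p 3.7e-07). U251 was lower in every library for these 3 genes. The higher members were EGLN3, an oxygen-sensing hydroxylase, at 1.01, 0.553 and 0.805 CPM in U87 and 8.95, 13.1 and 12.5 CPM in U251 (log2 difference 3.85, SE 0.33, adjusted p 2.2e-07), and ANGPTL4, an inhibitor of lipoprotein lipase, at 13.7, 19.4 and 15.2 CPM in U87 and 47.5, 78.3 and 70.4 CPM in U251 (log2 difference 2.02, SE 0.28, adjusted p 2.9e-05). CA9, a frequently used hypoxia marker, is in the list and was not called.

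Mesenchymal transition factors were lower in U251 in 9 of 19 tested and higher in 0 by edgeR's quasi-likelihood test (median -0.62). At an unadjusted p under 0.05 1 member was higher, and DESeq2 called 1. Without U87 replicate 1 or U251 replicate 2 or 3, 1 was called higher. SNAI2, the repressor Slug, held 152, 364 and 353 CPM in U87 and 17.2, 23.4 and 22.3 CPM in U251 (log2 difference -3.79, SE 0.29, adjusted p 5.7e-08). CHI3L1, a secreted protein used as a marker of mesenchymal glioblastoma, held 28.8, 75.1 and 69.7 CPM in U87 and 0.936, 1.20 and 0.339 CPM in U251 (log2 difference -6.10, SE 0.50, adjusted p 1.2e-07). TWIST1, a helix-loop-helix factor of mesoderm, held 24.5, 29.7 and 29.4 CPM in U87 and 16.7, 9.61 and 7.68 CPM in U251 (log2 difference -1.30, SE 0.26, adjusted p 7.7e-04) and its relative TWIST2 held 1.68, 5.81 and 6.99 CPM in U87 and 0, 0.050 and 0 CPM in U251, a ratio of 267 (95% interval 47.5 to 10612) of U87 over U251. These 4 genes did not overlap between the lines, as was so for 50.7% of all genes tested, and TWIST1 was at -0.55 in replicate 1 alone.

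Fibroblast and pericyte markers followed the same direction, with 6 of 10 tested lower and 1 higher (median -3.48), and 2 were higher without U87 replicate 1. COL1A1, the main chain of type I collagen, held 460.1, 750.5 and 721 CPM in U87 and 4.39, 9.36 and 9.43 CPM in U251 (log2 difference -6.38, SE 0.35, adjusted p 1.9e-09). PDGFRB, a receptor of pericytes, held 45.4, 44.0 and 46.7 CPM in U87 and 2.51, 3.05 and 2.66 CPM in U251 (log2 difference -4.04, SE 0.24, adjusted p 4.0e-09). DCN, the small proteoglycan decorin, held 2.90, 20.4 and 21.9 CPM in U87 and 0.0585, 0.050 and 0 CPM in U251, a ratio of 417 (95% interval 115 to 3449) of U87 over U251. U87 replicate 1 was below replicates 2 and 3 in COL1A1 and DCN. THY1, a surface glycoprotein of fibroblasts and neurons, was higher in U251 at 4.44, 0.208 and 0.186 CPM in U87 and 179, 147 and 132 CPM in U251 (log2 difference 6.57, SE 0.73, adjusted p 3.1e-06). The list summed to 1111 to 2226 CPM in U87 and 885 to 1452 CPM in U251. In bulk RNA of a cell line, fewer expressing cells cannot be told apart from less RNA per cell.

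Collagen chains differed in both directions. Of 29 tested, 13 were higher and 9 lower in U251. The basement membrane chains COL4A1 and COL4A2, which lie side by side on chromosome 13, held 0.135, 0.138 and 0.248 CPM in U87 and 159, 358 and 344 CPM in U251 (log2 difference 10.61, SE 0.47, adjusted p 2.7e-10) and 15.5, 10.7 and 10.6 CPM in U87 and 267, 507 and 469.6 CPM in U251 (log2 difference 5.08, SE 0.26, adjusted p 9.9e-10). COL18A1, another basement membrane collagen, held 0.337, 0.623 and 0.619 CPM in U87 and 38.2, 50.05 and 48.9 CPM in U251 (log2 difference 6.42, SE 0.33, adjusted p 9.5e-10). The chains of type VI collagen were lower, COL6A3 at 493, 1733 and 1778 CPM in U87 and 18.2, 45.1 and 42.5 CPM in U251 (log2 difference -5.24, SE 0.49, adjusted p 5.7e-07) and COL6A2 at 849, 923 and 872 CPM in U87 and 151, 216 and 196 CPM in U251 (log2 difference -2.23, SE 0.17, adjusted p 6.4e-08). Fibril-associated collagens stood on both sides, COL16A1 lower at 85.6, 163 and 157 CPM in U87 and 2.87, 6.16 and 6.95 CPM in U251 (log2 difference -4.66, SE 0.33, adjusted p 2.6e-08) and COL14A1 higher at 0.202, 0.623 and 0.433 CPM in U87 and 6.43, 6.76 and 6.33 CPM in U251 (log2 difference 3.93, SE 0.31, adjusted p 9.8e-08).

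Of 32 laminins and matrix glycoproteins tested, 9 were higher and 13 lower (median -0.57). THBS1, the adhesive protein thrombospondin-1, was higher, at 23.6, 27.4 and 27.9 CPM in U87 and 2004, 4010.4 and 3999 CPM in U251 (log2 difference 6.99, SE 0.35, adjusted p 6.8e-10). The basement membrane linkers nidogen-1 and nidogen-2 differed in opposite directions: NID1 held 0.404, 0.899 and 0.309 CPM in U87 and 77.9, 106 and 104 CPM in U251 (log2 difference 7.48, SE 0.38, adjusted p 7.7e-10) and NID2 held 24.6, 99.0 and 104 CPM in U87 and 0.351, 0.551 and 0.508 CPM in U251 (log2 difference -7.30, SE 0.55, adjusted p 5.2e-08). Laminin alpha chains did the same, with LAMA4 at 15.5, 17.0 and 17.6 CPM in U87 and 116, 145 and 143 CPM in U251 (log2 difference 3.01, SE 0.14, adjusted p 3.0e-10) and LAMA1 at 15.4, 40.9 and 38.9 CPM in U87 and 0.409, 0.50 and 0.678 CPM in U251 (log2 difference -5.88, SE 0.43, adjusted p 3.8e-08). FN1, fibronectin, held 417, 3752 and 3728 CPM in U87 and 152, 367 and 378 CPM in U251 (log2 difference -3.14, SE 0.57, adjusted p 3.4e-04), and its U87 replicate 1 was far below replicates 2 and 3 but above all U251 libraries.

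Receptors for matrix differed too. Among 16 integrins tested 5 were higher and 4 lower, and 3 were higher without U251 replicate 3. ITGB4 and ITGA6, which pair as a laminin receptor, held 0.673, 0.553 and 1.11 CPM in U87 and 162, 187 and 179 CPM in U251 (log2 difference 7.79, SE 0.22, adjusted p 1.0e-11) and 1.75, 8.23 and 8.48 CPM in U87 and 98.5, 112 and 111 CPM in U251 (log2 difference 4.12, SE 0.38, adjusted p 4.6e-07). ITGB8, which activates latent TGF-beta, held 5.86, 6.43 and 7.05 CPM in U87 and 121, 120.3 and 126 CPM in U251 (log2 difference 4.25, SE 0.18, adjusted p 2.0e-10). ITGA5, the fibronectin receptor chain, was lower at 779.9, 693 and 675 CPM in U87 and 219, 276 and 275 CPM in U251 (log2 difference -1.48, SE 0.14, adjusted p 8.8e-07), as was ITGB3, a chain of the vitronectin receptor, at 231, 272 and 283 CPM in U87 and 32.7, 46.6 and 51.7 CPM in U251 (log2 difference -2.58, SE 0.20, adjusted p 5.9e-08).

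Classical cadherins were higher in 5 of 10 tested and lower in 2 (median 1.59). CDH4, retinal cadherin, held 0.875, 2.14 and 2.10 CPM in U87 and 223, 147 and 156 CPM in U251 (log2 difference 6.67, SE 0.44, adjusted p 1.2e-08) and CDH2, neural cadherin, held 64.6, 66.4 and 67.6 CPM in U87 and 141, 182 and 178 CPM in U251 (log2 difference 1.33, SE 0.16, adjusted p 9.0e-06). CDH10 had 0 counts in U87 and 14.0, 15.5 and 10.2 CPM in U251 (at least 202-fold higher). CDH7 was called lower, yet held 0, 7.95 and 6.99 CPM in U87 and 0.526, 0.25 and 0.226 CPM in U251, with U87 replicate 1 at 0 counts. Its difference was -4.92 in replicates 2 and 3 and above 0 in replicate 1, where the fitted size depends on the prior count.

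Of 23 metalloproteinases, their inhibitors and plasminogen activation genes, 4 were higher and 8 lower (median 0.02). The gelatinase MMP2 held 2153, 2288 and 2202 CPM in U87 and 109, 134 and 119 CPM in U251 (log2 difference -4.20, SE 0.16, adjusted p 6.3e-11), its membrane activator MMP14 held 893, 1059 and 999 CPM in U87 and 255, 307 and 301 CPM in U251 (log2 difference -1.77, SE 0.13, adjusted p 3.6e-08) and the inhibitor TIMP3 held 132, 142 and 143 CPM in U87 and 6.72, 7.16 and 6.84 CPM in U251 (log2 difference -4.33, SE 0.19, adjusted p 2.9e-10). All 3 were lower in every U251 library. The plasminogen activators were higher, PLAU at 222, 169.9 and 166 CPM in U87 and 524, 499 and 482 CPM in U251 (log2 difference 1.43, SE 0.21, adjusted p 5.9e-05) and PLAT at 3.77, 9.96 and 10.1 CPM in U87 and 36.3, 65.2 and 58.9 CPM in U251 (log2 difference 2.75, SE 0.46, adjusted p 1.6e-04).

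Receptor tyrosine kinases were higher in U251 in 12 of 26 tested and lower in 5 (median 0.86). EPHA3, an ephrin receptor, held 0, 0.138 and 0.186 CPM in U87 and 148, 174 and 162 CPM in U251 (log2 difference 10.42, SE 0.36, adjusted p 3.7e-11). IGF1R, the receptor of insulin-like growth factor 1, held 19.1, 41.6 and 42.1 CPM in U87 and 127, 175 and 175 CPM in U251 (log2 difference 2.21, SE 0.25, adjusted p 3.7e-06). Fibroblast growth factor receptors differed in opposite directions, with FGFR1 lower at 271, 258 and 268 CPM in U87 and 124, 113 and 106 CPM in U251 (log2 difference -1.22, SE 0.12, adjusted p 1.4e-06) and FGFR3 at 0, 0 and 0.0619 CPM in U87 and 7.08, 3.20 and 4.24 CPM in U251, a ratio of 216 (95% interval 38.4 to 8555) of U251 over U87. EGFR, the receptor most often amplified in glioblastoma, held 81.6, 212 and 217 CPM in U87 and 186, 264 and 275 CPM in U251. With the lines overlapping, EGFR did not pass (log2 difference 0.51, SE 0.28, adjusted p 0.146). Its difference was above 0 in both replicate checks, at 1.19 in replicate 1 and 0.329 in replicates 2 and 3. MET held 173, 397 and 409 CPM in U87 and 489.5, 592 and 586 CPM in U251, under the 2-fold limit (log2 difference 0.77, SE 0.23, adjusted p 0.0132). In replicate 1 alone MET was past that limit at 1.4997, and in replicates 2 and 3 it was at 0.547.

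Secreted modulators of insulin-like growth factors gave 4 of 11 genes higher and 3 lower. IGFBP2, a binding protein raised in many gliomas, held 0.135, 0.0692 and 0.309 CPM in U87 and 121, 96.9 and 89.99 CPM in U251 (log2 difference 9.13, SE 0.33, adjusted p 5.2e-11), and IGFBP7 held 33.7, 60.9 and 61.9 CPM in U87 and 679.6, 509 and 475 CPM in U251 (log2 difference 3.41, SE 0.22, adjusted p 1.0e-08). IGFBP6 was lower, at 257, 231 and 230.2 CPM in U87 and 31.5, 27.5 and 25.5 CPM in U251 (log2 difference -3.09, SE 0.15, adjusted p 6.3e-10). IGFBP3 was called lower (-2.23) with 29.6, 118 and 112 CPM in U87 and 21.6, 18.6 and 15.5 CPM in U251, but its difference in replicate 1 alone was -0.45.

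In the BMP pathway 8 of 25 tested genes were higher and 4 lower (median 0.15, 1.52 in replicate 1 and -0.12 in replicates 2 and 3). The antagonist GREM1 held 468, 670.5 and 673 CPM in U87 and 0.702, 0.601 and 0.791 CPM in U251 (log2 difference -9.75, SE 0.30, adjusted p 1.3e-11). The ligand BMP4 held 0, 0 and 0.186 CPM in U87 and 9.71, 8.06 and 7.01 CPM in U251, a ratio of 125 (95% interval 42.4 to 607), and the ligand BMP2 held 4.24, 5.05 and 7.86 CPM in U87 and 0.0585, 0.30 and 0.395 CPM in U251 (log2 difference -4.45, SE 0.57, adjusted p 1.3e-05), so these ligands went opposite ways. FSTL3, which binds activins and BMPs, held 9.83, 9.06 and 8.73 CPM in U87 and 167, 131 and 129.6 CPM in U251 (log2 difference 3.95, SE 0.19, adjusted p 6.2e-10), and the target gene ID4 held 1.68, 8.02 and 6.75 CPM in U87 and 51.2, 32.1 and 32.1 CPM in U251 (log2 difference 2.81, SE 0.41, adjusted p 5.0e-05).

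Notch pathway genes were higher in 8 of 17 tested and lower in 3 (median 0.59). The target HES1 held 1.82, 2.42 and 2.78 CPM in U87 and 17.1, 23.5 and 21.7 CPM in U251 (log2 difference 3.14, SE 0.34, adjusted p 2.7e-06) and HES4 held 0.135, 0.553 and 0.248 CPM in U87 and 31.6, 36.0 and 32.4 CPM in U251 (log2 difference 6.72, SE 0.39, adjusted p 3.2e-09). The ligand DLL3 had 0 counts in U87 and 2.40, 1.10 and 1.53 CPM in U251 (at least 24.9-fold higher), and the receptor NOTCH3 was lower at 4.11, 36.7 and 36.6 CPM in U87 and 1.40, 1.20 and 1.86 CPM in U251 (log2 difference -4.11, SE 0.61, adjusted p 5.8e-05). NOTCH4 was called lower through U87 replicate 1, with 11.3, 0.899 and 1.36 CPM in U87 and 0.702, 0.901 and 0.734 CPM in U251, and was -0.47 in replicates 2 and 3 and -0.53 without U87 replicate 1.

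In the Hedgehog pathway 3 of 12 tested were higher and 4 lower. The signal transducer SMO held 0, 0.0692 and 0 CPM in U87 and 12.7, 8.26 and 9.04 CPM in U251, a ratio of 451 (95% interval 80.5 to 17832) of U251 over U87. The transcription factors at the end of the pathway went the other way, with GLI2 at 7.81, 31.5 and 31.6 CPM in U87 and 0.117, 0.150 and 0.0565 CPM in U251 (log2 difference -7.66, SE 0.78, adjusted p 1.4e-06) and GLI1, itself a target, at 2.63, 7.12 and 5.63 CPM in U87 and 0.409, 0.25 and 0.113 CPM in U251 (log2 difference -4.28, SE 0.49, adjusted p 4.8e-06). HHIP, a decoy receptor that the pathway also induces, held 0.135, 0.138 and 0.124 CPM in U87 and 2.40, 4.05 and 3.05 CPM in U251 (log2 difference 4.51, SE 0.48, adjusted p 2.1e-06).

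On chromosome 9 a run of neighbouring genes was at or near 0 in U87 and present in U251. MTAP (ENSG00000099810, chromosome 9, 21802636 to 21937651), which recycles methylthioadenosine and lies beside CDKN2A, held 0.135, 0.277 and 0.186 CPM in U87 and 115, 131 and 119.8 CPM in U251 (log2 difference 9.21, SE 0.24, adjusted p 7.0e-12). The neighbours were named after their values were seen. FOCAD, a focal adhesion gene, held 5 counts in U87 and 3537 in U251 (log2 difference 9.09, SE 0.27, adjusted p 1.3e-11), KLHL9, an adaptor of a ubiquitin ligase, 10 and 4704 (log2 difference 8.55, SE 0.29, adjusted p 3.7e-11), and MLLT3, a reader of histone acylation, 1 and 951 (ratio 789 (95% interval 141 to 31207)). MIR31HG, the host RNA of a microRNA gene, and DMRTA1, a DM-domain factor, had 0 counts in U87 against 507 and 997 in U251 (at least 140.3-fold and 276-fold higher).

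The genes at or near 0 in U87 lay from MLLT3 (20341669 to 20622499) to LINC01239 (22646200 to 22824213), with more of them further on. Upstream of MLLT3, SLC24A2 (19507452 to 19786928), a sodium, potassium and calcium exchanger, was present in U87 with 2.76, 10.6 and 10.2 CPM in U87 and 0.0585, 0.30 and 0.113 CPM in U251 (log2 difference -5.53, SE 0.74, adjusted p 2.2e-05). RPS6, DENND4C and HAUS6 were present in U87 too. Of these, DENND4C (log2 difference 2.08, adjusted p 6.4e-07) and HAUS6 (log2 difference 1.86, adjusted p 1.9e-05) were called higher in U251. RPS6 was at 0.669, under the 2-fold limit. Downstream, AL445623.2 had 3 counts in U87 and 54 in U251, and IZUMO3, named for a family of sperm proteins, had 0 and 158. Between them ELAVL2, a neuronal RNA-binding protein, held 1.68, 7.68 and 6.13 CPM in U87 and 13.0, 10.8 and 9.26 CPM in U251. Between MLLT3 and LINC01239, CDKN2A, which encodes the inhibitors p16 and p14ARF, had 10 counts in U87 and 7 in U251, and CDKN2B had 2 and 4, so both lines were at the limit of detection there. CLIC4P1, a pseudogene with a near-identical parent elsewhere, had 55 and 38 counts.

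**Figure D5:**
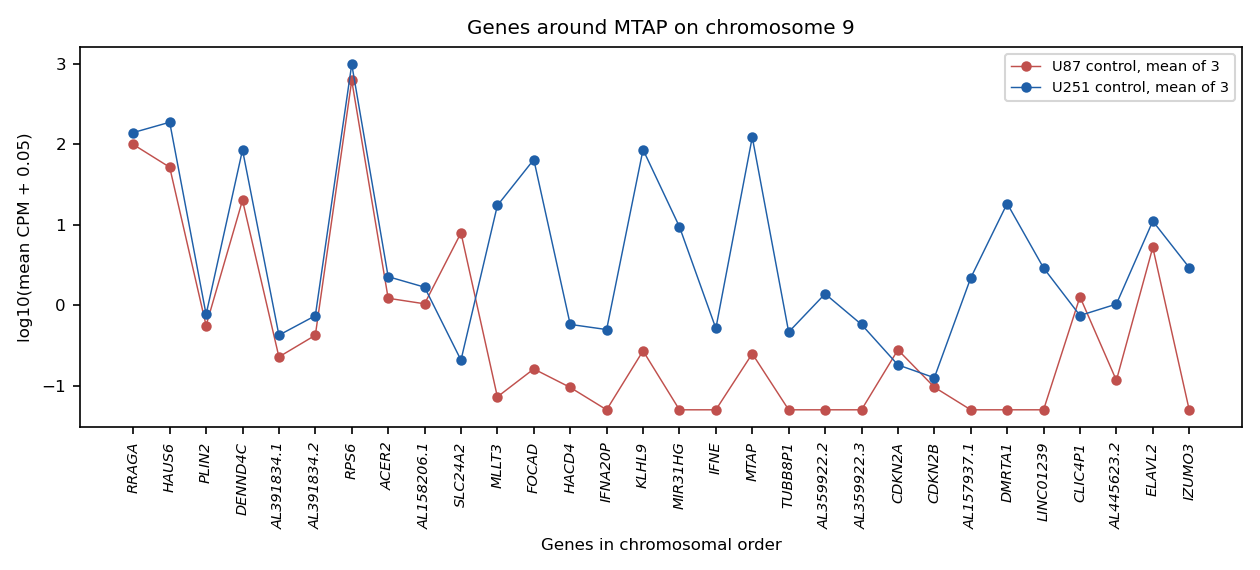
Mean CPM of 3 control libraries, as log10 of CPM plus 0.05, for genes around MTAP on chromosome 9 with at least 20 counts, and CDKN2A and CDKN2B, in chromosomal order and evenly spaced, with U87 in red and U251 in blue. From MLLT3 to LINC01239 the red points lie at or near the floor of -1.30 while blue points reach 122 CPM at MTAP, and at CDKN2A and CDKN2B both lines are low.

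Other genes of the RB pathway differed less, with 3 of 11 on the list higher, MTAP included, and 1 lower. These are 36.4% of the 11, against 31.6% of all genes tested. RB1 held 34.4, 65.1 and 62.2 CPM in U87 and 118, 141 and 148 CPM in U251 (log2 difference 1.33, SE 0.22, adjusted p 1.2e-04), the kinase CDK4 held 482, 179 and 176 CPM in U87 and 166, 99.0 and 98.1 CPM in U251 (log2 difference -1.20, SE 0.33, adjusted p 0.00652) and the transcription factor E2F3 held 17.4, 23.3 and 26.0 CPM in U87 and 55.0, 75 and 69.9 CPM in U251 (log2 difference 1.58, SE 0.20, adjusted p 9.8e-06). For CDK4 U87 replicate 1 was the high library, and without it CDK4 was not called. Of DNA replication and mitosis genes, 5 of 31 (16.1%) and 4 of 28 (14.3%) were called, against 31.6% of all genes tested. The replication count rested on single libraries: 0 members were called higher without U87 replicate 2 or 3 or U251 replicate 1, and 1 member was called lower without U87 replicate 1 or U251 replicate 2 or 3. The 4 called mitotic genes were all higher in U251, among them the checkpoint kinase TTK, at 39.5, 33.5 and 34.8 CPM in U87 and 104, 116 and 117 CPM in U251 (log2 difference 1.64, SE 0.13, adjusted p 8.3e-08). In the libraries with hairpin 1812, 0 of the 28 were called higher and 1 lower (median -0.13, against 0.46 in controls). The helicase subunit MCM6 was lower, at 250.55, 209 and 209.7 CPM in U87 and 111, 76.9 and 71.5 CPM in U251 (log2 difference -1.37, SE 0.17, adjusted p 9.2e-06).

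In the repair list 1 of 11 genes was called. MLH3, a mismatch repair protein, held 13.5, 56.4 and 54.5 CPM in U87 and 2.75, 5.21 and 4.91 CPM in U251 (log2 difference -3.27, SE 0.47, adjusted p 3.8e-05). MGMT, which removes alkyl groups from guanine and bears on the response to temozolomide, had 0 counts in all 6 libraries. With 0 counts a level of up to 3 counts per line is allowed by counting error.

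Cancer-testis antigens, proteins normally made in germ cells, were mostly at or near 0 counts in both lines. Of 30, 24 did not pass the filter, with at most 20 counts in either line, and 6 passed, through the line where they were high, and 5 were higher in U251 and 1 lower. MAGEA3 held 0, 0 and 0.186 CPM in U87 and 81.2, 64.0 and 63.0 CPM in U251, a ratio of 1046 (95% interval 358 to 5074), and MAGEA6 held 0, 0.277 and 0.186 CPM in U87 and 132, 91.3 and 84.2 CPM in U251 (log2 difference 9.31, SE 0.46, adjusted p 6.4e-10). These genes are near-identical, so their counts are uncertain one by one. MAGEC2 was present only in U87, with 2.29, 25.5 and 26.2 CPM and 0 counts in U251 (at least 332-fold lower in U251), and U87 replicate 1 was far below the other two.

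Metallothioneins, small proteins that bind zinc and copper, were lower in U251 in 5 of 5 tested (median -1.87), with 2 of 5 called in replicates 2 and 3 and also 2 without U87 replicate 1. MT2A held 1460.5, 449 and 451 CPM in U87 and 407, 305 and 291 CPM in U251 (log2 difference -1.23, SE 0.37, adjusted p 0.0122), and its difference was -1.84 in replicate 1 and -0.59 in replicates 2 and 3. Without U87 replicate 1 MT2A was at -0.42 and not called. MT1X held 122, 37.5 and 38.2 CPM in U87 and 19.5, 16.4 and 15.4 CPM in U251 (log2 difference -1.94, SE 0.40, adjusted p 9.4e-04). U87 replicate 1 was the high library in both. MT1L, a pseudogene of the cluster, held 23.4, 18.1 and 15.2 CPM in U87 and 0 counts in U251 (at least 343-fold lower). Members of this family are near-identical and may share reads.

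The promoters of MT2A and MT1X are shown as examples of the metal response element, searched as TGCGCNC or TGCACNC on both strands and marked in capitals, 5′ to 3′, from RefSeq GRCh38.p14.
MT2A, chr16:56608334-56608633, plus strand: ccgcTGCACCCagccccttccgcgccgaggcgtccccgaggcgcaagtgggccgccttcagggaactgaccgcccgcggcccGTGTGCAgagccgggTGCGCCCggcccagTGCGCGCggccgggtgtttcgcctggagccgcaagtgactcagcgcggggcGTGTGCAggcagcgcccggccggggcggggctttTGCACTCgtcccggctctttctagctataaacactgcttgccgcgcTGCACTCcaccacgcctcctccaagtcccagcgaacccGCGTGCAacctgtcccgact
MT1X, chr16:56682300-56682443, plus strand: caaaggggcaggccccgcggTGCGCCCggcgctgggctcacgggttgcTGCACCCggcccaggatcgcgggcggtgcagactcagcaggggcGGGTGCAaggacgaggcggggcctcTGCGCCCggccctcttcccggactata
MT2A holds 8 matches and MT1X 4. The element is in 3 of the 3 metallothionein promoters in the tables and in 29.3% of all promoters, so it is a common string.

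LAMP2, the lysosomal membrane gene whose isoform A the study targets, was itself higher in U251 before any hairpin, with 195, 294 and 292 CPM in U87 and 659, 711 and 711 CPM in U251 (log2 difference 1.42, SE 0.15, adjusted p 2.2e-06). Its relative LAMP1 held 651, 526 and 499 CPM in U87 and 281, 309 and 304 CPM in U251 (log2 difference -0.91, SE 0.13, adjusted p 4.8e-05), under the 2-fold limit. Of 19 genes of chaperone-mediated autophagy and the LAMP family, 2 were higher and 3 lower (26.3% called, against 31.6% of all genes tested). CTSA, the protease cathepsin A that regulates LAMP2A, held 445, 398 and 371 CPM in U87 and 196, 183 and 173 CPM in U251 (log2 difference -1.14, SE 0.13, adjusted p 5.7e-06).

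Nuclear long noncoding RNAs were higher in 4 of 14 tested (2 without U251 replicate 2 or 3) and lower in 0 by edgeR's quasi-likelihood test. That is 28.6% called, against 31.6% of all genes tested. DESeq2 also called 0 lower, and 1 was lower at an unadjusted p under 0.05. LINC00461, a brain-enriched RNA, held 4.71, 16.5 and 14.8 CPM in U87 and 74.3, 96.8 and 91.9 CPM in U251 (log2 difference 2.87, SE 0.32, adjusted p 3.9e-06). MEG3, from the imprinted region of chromosome 14, held 0.337, 18.6 and 20.4 CPM in U87 and 28.7, 64.7 and 69.1 CPM in U251 (log2 difference 2.04, SE 0.69, adjusted p 0.0230), and its difference was 6.38 in replicate 1 and 1.78 in replicates 2 and 3. MEG3 was not called without U251 replicate 2 (1.91) or 3 (1.84). Of the 13 mitochondrially encoded transcripts edgeR called 0, DESeq2 called 0 and 0 had an unadjusted p under 0.05 (median -0.17). Their share of counts differed between control replicate 1 and replicates 2 and 3 in both lines, so a line difference could be missed. In the libraries with hairpin 1812, 7 of the 13 were called lower in U251 and 0 higher (median -1.02).

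By chromosome the median log2 difference ran from -0.68 on chromosome 18, where 35.7% of 241 genes were lower in U251, to 0.53 on chromosome 6, where 29.7% of 896 genes were higher. Chromosome 7 was at 0.32. Chromosomes 21, 14 and 12 were at -0.57, -0.62 and -0.44, and chromosome 14 was at -0.13 in replicate 1 alone. No test was made over chromosomes.

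The line difference was seen again in libraries of both lines that carry hairpin 1812. There 2973 genes were higher (17.7%) and 2621 lower (15.6%) in U251. Of the control calls, 2108 higher (79.8%) and 1932 lower genes (72.0%) were called in the same direction, which is 70.9% and 73.7% of the hairpin calls, and 8 and 11 in the opposite direction. SOX2, BST2 and LDHA were at 9.15, 8.54 and -6.67 with the hairpin. The line difference with and without hairpin 1812 differed in 545 genes (3.24%). LAMP2 was one, at 1.42 without and 0.26 with the hairpin (adjusted p of the difference 0.00931), and LAMA4 another, at 3.01 and -0.07 (adjusted p 9.1e-07).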

How the data were processed

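Total RNA depleted of ribosomal RNA was sequenced in 15 libraries. Per the submitters' processing notes the tools were bcl2fastq 2.17.1.14, cutadapt 1.9.1, HISAT2 2.0.1, HTSeq 0.6.1, bedtools 2.17.0 and DESeq2, with the build GRCh38. The authors deposited, per library, a raw count and an FPKM for 60612 genes. The annotation release and counting strand are not given in the sources used here. FPKM recomputed from counts and exonic lengths differed from the deposited FPKM by at most 0.005.

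Counts were tested with edgeR 4.0.16 in R 4.3.3 (TMM, filterByExpr, quasi-likelihood F test, two-sided, Benjamini-Hochberg over the 16841 genes tested). A single fit of all 15 libraries with 5 group means left 10 residual degrees of freedom. For the separate values of replicate 1 and replicates 2 and 3 the controls were split into 7 groups in all, and a lone library was assumed to vary like the others. Calls needed an adjusted p below 0.05 together with a log2 difference of 1 or more in size. SE is the log2 difference divided by the square root of F. Genes with 0 counts in a line are given as a bound, with the line's sum set to a floor of 3 counts, and genes with 1 to 3 counts as ratios with an exact 95% interval. Both cover counting error only. The test was checked on simulated counts. An exact two-sided permutation test of 3 against 3 libraries has 20 arrangements and cannot give a p below 0.1, so it is not printed per gene.

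Named were SOX2, BST2, LDHA, FOXD1 and LAMP2; the 12 largest and 12 smallest differences among called genes with at least 5 FPKM in the higher line, no overlap between lines and the same direction in both replicate checks; the 6 highest genes silent in the other line; and up to 4 called members per direction of each of 38 lists, of which the text gives a selection. Named after their values were seen were the genes near MTAP, and NES, VIM, SPARC, STAT2, IRF1, MX1, IFIT1, IFITM1, IFITM3, OAS1, RSAD2, B2M, HLA-B, CXCL8, CXCL1, IL1B, LDHB, HK2, LAMP1, EGFR, MET, TWIST1, FN1, MDM2, PAX3, OLIG2 and MT2A. The members and lists were chosen with earlier results of these data known. Of 837 list members 694 passed the filter. Genes of chromosome Y and some items are not reported here. Lists are described by counts and medians, without a test.

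The replicate numbers were taken to pair the control libraries, since the deviations of same-numbered U251 and U87 libraries from their group means correlated at 0.49, 0.34 and 0.409 over 16841 genes. Replicates 2 and 3 crossed correlated as well (0.389 and 0.343) and replicate 1 with 2 or 3 negatively (-0.365 to -0.465), so the values separate replicate 1 from replicates 2 and 3 and do not single out 2 with 2 or 3 with 3. The labels do not state a shared batch. Extraction methods and sequencers are named as alternatives in the labels without saying which library each belongs to. For genes the 15 alternatives were RLE scaling, DESeq2 1.42.0, no filter, the 6 control libraries alone, a term for control replicates 2 and 3, both replicate checks, the replicate block with all libraries or, added after seeing the data, with the 6 controls, and leaving out each control library. For counts a call on adjusted p alone was also made.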

Additional observations from a re-analysis of the deposited data

Results flagged for a closer look

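Among the 264 genes named, 34 had a line difference that differed between the control libraries and the libraries with hairpin 1812. The interaction term of the same edgeR fit was used, at an adjusted p under 0.05. The share of all genes at this threshold was not counted. With a difference of at least 1 required as well, it was 545 of 16841 genes (3.24%). Named genes were mostly picked as called between the lines, so the 34 are only listed. Each value is the log2 line difference in controls minus that with the hairpin. Matrix and surface genes were EFEMP1 (4.93), COL14A1 (4.28), ITGA11 (3.18), LAMA4 (3.07), COL4A1 (2.95), LAMA1 (-2.82), ITGA6 (-2.03), ITGB8 (1.62), ITGB4 (1.49) and PLAU (1.28). EFEMP1, a fibulin, was at 6.06 in controls and 1.136 with the hairpin, and COL14A1 at 3.93 and -0.35.

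Secreted and signalling genes with such a difference were IL36B (-7.54), ID4 (-2.91), CXCL8 (-2.48), IGFBP3 (-2.02), ANGPTL4 (-1.71), IGFBP6 (-1.35), KIF7 (-1.17) and STC2 (-0.99). IL36B, an interleukin-1 family cytokine, was at -7.62 in controls and -0.08 with the hairpin, and its U87 control replicate 1 held 8.75 CPM against 137 and 139 CPM in replicates 2 and 3. CXCL8 was at 0.45 and 2.93. Transcription factor and neural genes were HOXB9 (4.77), GFAP (2.20), POU3F2 (1.9), NDRG2 (-1.85), SYT1 (1.71), SNAI2 (-1.70), SLC1A3 (1.30) and FOXP4 (-0.71). Interferon and antigen presentation genes were HLA-F (-1.36) and ISG15 (-1.30).

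Cell cycle and growth genes were NUSAP1 (1.22), PHLDA3 (-1.21), ECT2 (1.05), RFC4 (0.91) and TTK (0.80), and LAMP2 itself was at 1.16. The 6 libraries with hairpin 1812 held 33.2 to 88.7 CPM of the nuclear RNA MALAT1, near control replicate 1 of both lines (32.7 and 67.4 CPM) and below control replicates 2 and 3 (250.7 to 391 CPM). The part of that in these values was not tested. Outside the control libraries, HOXB9, at 0 counts in U87 control, had 12 counts over the 3 U87 hairpin libraries, above the floor of 3 counts, so the size of its value above depends on the prior count. TNFSF9, at 0 counts in U251 control, had 7 counts over the 6 U251 hairpin libraries.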

How the results depend on the processing

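The counts of genes called, 2642 higher and 2685 lower, stayed within 1.5 times under every alternative except a call on adjusted p alone, which gave 4040 higher and 4386 lower genes. Without one control library they ranged from 2537 to 2884 higher and 2621 to 3029 lower. The fit of the 6 control libraries alone gave the lowest counts, 2136 and 2143. With the replicate block they were 2708 and 2677, sharing 2615 and 2635 genes with the fit without it, and in the 6 control libraries alone with the block 2320 and 2212. With the block of all libraries 1 named gene, B2M, came past an adjusted p of 0.05 (at 0.68, under the fold minimum), the higher count of endothelial markers went from 1 to 2 and that of mesenchymal factors from 0 to 1, and it changed no other call of a named gene and moved no other list count by over 1.5 times. Of 3947 values of the 264 named genes under alternatives, 3869 kept direction and side of the adjusted p threshold, 50 were no longer past it, 20 came past it and 8 changed sign. In replicate 1 alone the sign changed for CDH7 (6.07, with U87 replicate 1 at 0 counts), SEMA6D (0.42), HOXA-AS2 (-0.20), IRF1 (-0.82), STAT2 (-0.49) and MDM2 (0.23), and IRF1, at 0.17, ranged from -0.12 to 0.99 when a control library was left out (-0.10 without U87 replicate 2, -0.12 without U87 replicate 3). The cause was not tested. Depth limits genes near 0 counts, whose fitted differences depend on the prior count.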

Other observations

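HOXA-AS2, an antisense RNA of the HOXA cluster, held 0.741, 0.346 and 0.248 CPM in U87 and 0.643, 1.45 and 1.13 CPM in U251 with the lines overlapping (log2 difference 1.27, SE 0.45, adjusted p 0.0274).

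Genes of other roles showed large line differences as well. TBX18, a T-box factor of pericytes, held 18.5, 32.5 and 25.5 CPM in U87 and 0.351, 0 and 0 CPM in U251 (log2 difference -7.75, SE 0.62, adjusted p 9.9e-08). EFEMP2, a fibulin needed for elastic fibres, held 72.4, 74.1 and 71.4 CPM in U87 and 6.43, 7.41 and 6.10 CPM in U251 (log2 difference -3.45, SE 0.23, adjusted p 1.3e-08), opposite to its relative EFEMP1 at 5.66, 1.80 and 0.866 CPM in U87 and 183, 189.8 and 182 CPM in U251 (log2 difference 6.06, SE 0.43, adjusted p 3.1e-08). The lines did not overlap in any of the 3, as was so for 50.7% of all genes tested.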
